A study of Mus musculus with 4 samples.

Results

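The genes described here encode the nuclear-encoded subunits of respiratory complexes II, III, IV and V and cytochrome c, in the semimembranosus (a hamstring muscle) of C57BL/6 mice aged 8 weeks. They were chosen by name: protein-coding genes of the mouse annotation whose symbol is Sdha, Sdhb, Sdhc, Sdhd, Cyc1 or Cycs, or begins with Uqcr, with Cox and a digit from 4 to 8, or with Atp5. This gave 50 of the 55401 genes in the count files, and 46 of them had enough counts to be tested. Every mouse carried a stenosis of the left external iliac vein, made by tying the vein over a 30-gauge needle. In the IVS group (2 libraries) the mice received saline by gavage daily, and in the IVS_diosmin group (2 libraries) they received a daily gavage of diosmin at 40 mg per kg. Diosmin is a flavonoid given for chronic venous disease. No muscle without stenosis was analysed here, so the comparison asks what differs with the drug among operated mice.

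In the inner mitochondrial membrane, complex II passes electrons from succinate to ubiquinone, complex III passes them from ubiquinol to cytochrome c, and complex IV passes them from cytochrome c to oxygen. Complexes III and IV pump protons as they work, and complex V, the ATP synthase, lets protons flow back through a ring of c subunits to make ATP. Muscle uses tissue-restricted isoforms of some complex IV subunits (Cox6a2, Cox7a1, Cox8b) beside broadly expressed ones (Cox6a1, Cox7a2, Cox8a), and complexes III to V also hold subunits encoded in the mitochondrial genome.

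The promoters of 5 genes are shown because the genes' RNA behaved differently between the groups or because they encode the same product: the 3 genes of the ATP synthase c subunit (Atp5g1, Atp5g2, Atp5g3), and Cox6a1 and Cox5a of complex IV. Each window runs from 250 bases before to 50 bases after the RefSeq gene start on GRCm38.p6, 5′ to 3′ on the strand of the gene. Capitals mark matches, on either strand, to GCGCANGCG (the letters searched for NRF1), CCGGAAG (GABP and other ETS factors), TNAAGGTCA (the estrogen-related receptors, ERR) or AAGATGGC (YY1). The windows lie at chr11:96075582-96075881 (minus strand, Atp5g1), chr15:102670998-102671297 (minus strand, Atp5g2), chr2:73911277-73911576 (minus strand, Atp5g3), chr5:115348909-115349208 (minus strand, Cox6a1) and chr9:57520982-57521281 (plus strand, Cox5a).
Atp5g1: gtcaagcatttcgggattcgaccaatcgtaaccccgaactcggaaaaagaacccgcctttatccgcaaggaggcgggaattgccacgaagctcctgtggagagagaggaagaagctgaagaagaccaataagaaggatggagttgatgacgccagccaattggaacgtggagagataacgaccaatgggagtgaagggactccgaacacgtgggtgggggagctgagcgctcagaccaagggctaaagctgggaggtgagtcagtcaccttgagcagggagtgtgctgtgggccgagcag
Atp5g2: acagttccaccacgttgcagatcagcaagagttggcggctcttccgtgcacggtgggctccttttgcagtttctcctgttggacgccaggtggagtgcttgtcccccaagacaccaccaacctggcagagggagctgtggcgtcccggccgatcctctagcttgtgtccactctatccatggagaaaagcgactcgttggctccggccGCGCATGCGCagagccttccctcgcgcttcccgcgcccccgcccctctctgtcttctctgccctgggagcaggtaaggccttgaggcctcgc
Atp5g3: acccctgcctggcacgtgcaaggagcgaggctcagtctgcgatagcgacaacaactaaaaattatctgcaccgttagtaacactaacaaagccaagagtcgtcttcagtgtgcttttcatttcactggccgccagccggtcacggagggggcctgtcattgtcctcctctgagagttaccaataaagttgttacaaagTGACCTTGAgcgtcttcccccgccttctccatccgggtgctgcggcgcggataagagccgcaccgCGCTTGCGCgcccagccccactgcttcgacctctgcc
Cox6a1: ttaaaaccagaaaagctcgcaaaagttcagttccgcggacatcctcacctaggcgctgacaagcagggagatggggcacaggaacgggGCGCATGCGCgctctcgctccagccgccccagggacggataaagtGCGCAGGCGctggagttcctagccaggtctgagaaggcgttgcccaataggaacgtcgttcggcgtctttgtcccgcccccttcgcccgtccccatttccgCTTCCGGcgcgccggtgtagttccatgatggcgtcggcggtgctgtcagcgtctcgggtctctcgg
Cox5a: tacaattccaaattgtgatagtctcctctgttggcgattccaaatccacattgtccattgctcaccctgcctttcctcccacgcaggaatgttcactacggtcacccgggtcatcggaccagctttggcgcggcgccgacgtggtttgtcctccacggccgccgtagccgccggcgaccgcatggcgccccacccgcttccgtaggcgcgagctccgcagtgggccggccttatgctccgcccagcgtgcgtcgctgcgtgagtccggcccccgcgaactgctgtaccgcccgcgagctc

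Atp5g1 and Cox5a held none of these letters in their windows. Atp5g2 held a palindromic NRF1 match, read on both strands, 42 bases before the start. Atp5g3 held an NRF1 match 13 bases after the start position and an ERR match 52 bases before it. Cox6a1 held 3 NRF1 matches, of which a pair overlap as a palindrome 162 bases before the start and the other begins 117 bases before it, and an ETS match 16 bases before the start. Promoters were matched for 37 of the 50 genes (40 windows). The NRF1 letters stood in 13 of the 40 windows (32.5%), against 6.25% of 32851 mouse promoter windows of the same length. The GABP/ETS letters stood in 12 windows (30.0%, against 8.86%), ERR in 2 (5.0%, against 1.28%) and YY1 in 3 (7.5%, against 2.75%). A match is a description of letters and says nothing of binding in this muscle.

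Gene counts ran from 13056650 to 15324354 per library, of which the 50 genes took 1.15% and 0.989% in IVS replicates 1 and 2 and 0.758% and 0.759% in IVS_diosmin replicates 1 and 2. Levels below are CPM, counts relative to the TMM-scaled library size, and n = 2 libraries per group throughout. Skeletal muscle markers were present in every library. Summed over 6 genes they stood at 35300 and 41900 CPM in IVS and 48600 and 51900 CPM with diosmin. All 6 had positive log2 fold changes, diosmin minus IVS (median 0.64), and Des and Mb rose past the threshold by edgeR. Of 8 slow-fibre markers 7 rose, from a summed 44.9 to 48.7 CPM in IVS to 1360 to 3540 CPM with diosmin. Of 8 fast-fibre markers Myh1 rose and Tnnc2 fell, and the sum was 93800 to 102000 CPM in IVS and 79100 to 79900 CPM with diosmin. Of 8 endothelial markers 5 fell past the threshold by edgeR, and the sum was 430 to 446 CPM in IVS and 209 to 223 CPM with diosmin. All 8 were lower at an unadjusted p under 0.05 (8.91% of all genes tested). Over all genes tested, 1.78% fell and 1.17% rose past the threshold by edgeR. Of 4 tested erythrocyte markers 3 were higher at an unadjusted p under 0.05 (7.91% of all genes tested) and 0 passed the threshold by edgeR, and the sum was 3.95 to 18 CPM in IVS and 19.5 to 35.7 CPM with diosmin. The sums of the smooth muscle, macrophage, adipocyte (1 of 7 genes at 0 throughout), fibroblast and Schwann cell lists overlapped between the groups. A ribosomal RNA gene took 3.80% to 4.14% of gene counts in IVS and 0.936% to 1.16% with diosmin, and the mitochondrial genome took 31.5% to 38.5% and 40.7% to 45.0%. The part of these shifts in the results below was not tested. In bulk muscle, fewer cells of a type and less RNA per cell cannot be told apart.

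Most of the 46 tested genes had lower RNA levels with diosmin, but few of the differences passed the threshold by edgeR. The fold change (diosmin minus IVS) was negative for 37 genes and positive for 9, with a median log2 fold change of -0.33 against 0.01 over all 13533 genes tested. Cox5a, Cox6a1, Atp5g3 and Atp5mpl fell at an adjusted p under 0.05 by edgeR's quasi-likelihood test. These were 4 of 46 (8.70%), where 1.78% of all genes tested passed the threshold in that direction. None rose, where 1.17% of all genes did. At an unadjusted p under 0.05, 20 were lower and 1, Sdha, was higher, where 8.91% of all genes tested were lower and 7.91% higher at that level. DESeq2's Wald test called 9 lower (the same 4 with Cox5b, Cox7a2, Uqcrq, Atp5e and Atp5l) and 0 higher of the 45 to which it gave an adjusted p. Of the 9597 genes with such a value, it called 3.62% lower and 2.7% higher. Both diosmin libraries lay below both IVS libraries for 32 of the 46 (69.6%), against 24.1% of all genes. Both lay above for 3 (Sdha, Uqcrc2 and Atp5g2), against 23.4% of all genes. The 4 calls rested on all libraries together: 1 remained without IVS replicate 1 (Cox6a1), and 0 remained without IVS replicate 2, without IVS_diosmin replicate 1 or without IVS_diosmin replicate 2.

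**Figure D1:**
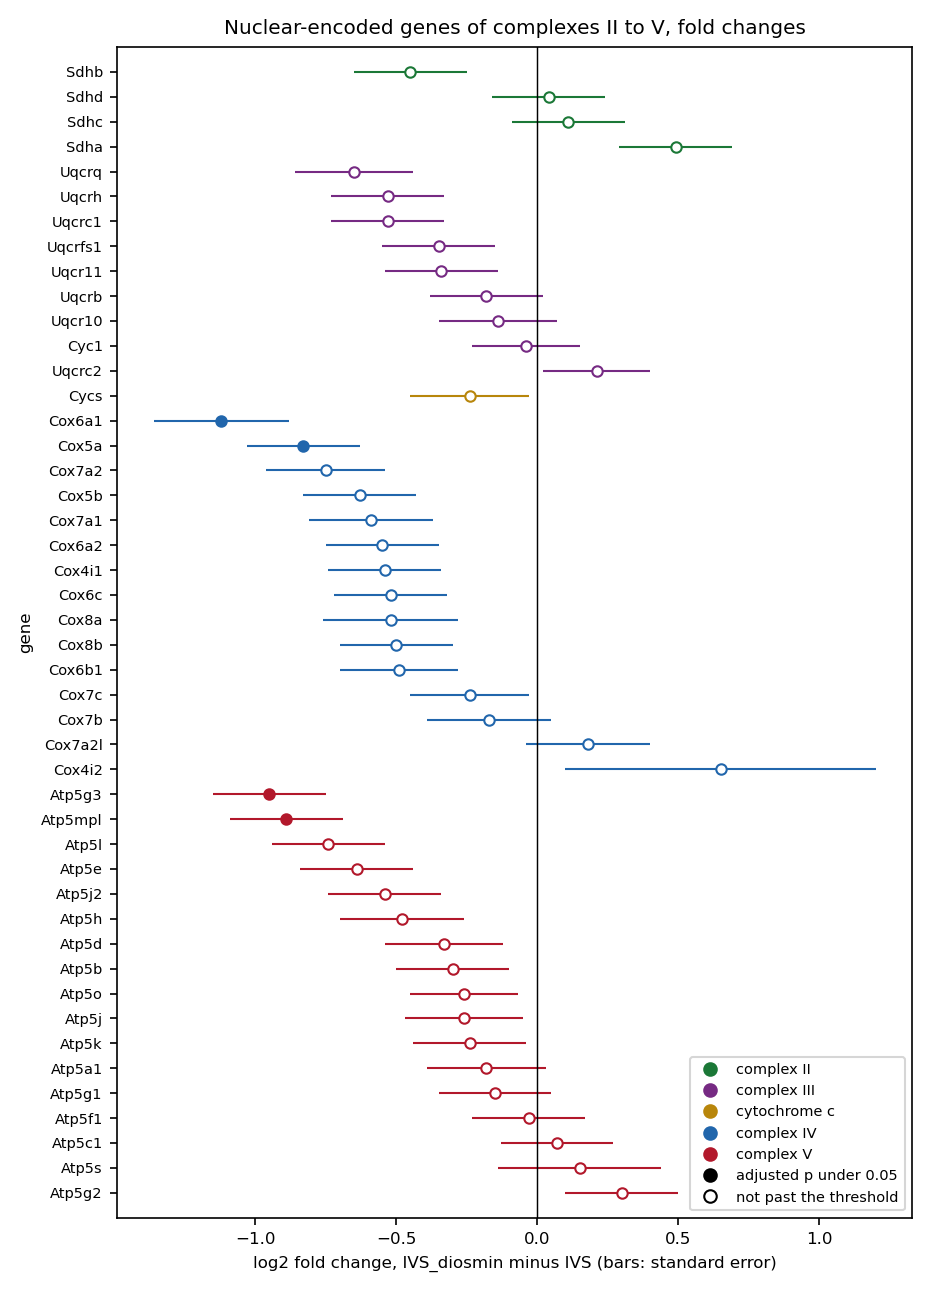
Log2 fold change (IVS_diosmin minus IVS) of each of the 46 tested genes, coloured by complex, with bars for the standard error. Filled points mark the 4 genes with an adjusted p under 0.05, which all lie left of 0, and 37 of the 46 points lie left of 0.

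Summed RNA was lower with diosmin for complexes III, IV and V, while the sums of complex II overlapped. Summed over its 4 genes, complex II stood at 428.1 and 413.9 CPM in IVS and 412.6 and 426.3 CPM with diosmin. The 9 genes of complex III summed to 1734 and 1845 CPM in IVS and to 1437 and 1362 CPM with diosmin, or 78.2% of the IVS mean. The sum for complex IV was 3513 and 3498 CPM in IVS and 2598 and 2325 CPM with diosmin, or 70.2%. Complex V summed to 4179 and 4500 CPM in IVS and 3461 and 3381 CPM with diosmin, or 78.8%. In complexes III, IV and V every diosmin sum lay below every IVS sum. The median log2 fold change was 0.08 in complex II, -0.34 in complex III, -0.52 over the 15 tested genes of complex IV and -0.26 over the 17 tested genes of complex V. For scale, the 37 nuclear-encoded subunits of complex I had a median of -0.42, with 36 negative values. That list was added after the data were seen. Of its 37 genes 2 fell past the threshold by edgeR (5.41%), where 1.78% of all genes tested did. Both diosmin libraries lay below both IVS libraries for 32 of the 37 (86.5%), against 24.1% of all genes. Scaling by total gene counts alone moved the median of all genes to -0.11, that of the 46 genes to -0.43 and that of complex II to -0.04. The differences between complexes were not tested.

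Complex II held the only gene of the 46 that was higher at an unadjusted p under 0.05. Sdha, the flavoprotein that oxidises succinate, was at 106.8 and 98.8 CPM in IVS and 131.6 and 157.2 CPM with diosmin. Its groups did not overlap, with a log2 fold change of 0.49 ± 0.20 (standard error) and an adjusted p of 0.237. Sdhb, the iron-sulfur subunit that takes electrons from Sdha, ran the other way, at 187.7 and 191.1 CPM in IVS and 151.6 and 125.4 CPM with diosmin. Its log2 fold change was -0.45 with an adjusted p of 0.282. Sdhc and Sdhd, the membrane anchors that hold the ubiquinone site, had log2 fold changes of 0.11 and 0.04 and overlapping groups. The catalytic pair of complex II thus had opposite signs, and neither gene passed the threshold.

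In complex III the lowest p belonged to Uqcrq, a small subunit that sits beside cytochrome b. Uqcrq was at 356.3 and 418.1 CPM in IVS and 272.7 and 219.7 CPM with diosmin, a log2 fold change of -0.65 ± 0.21 with an adjusted p of 0.131. The groups did not overlap. Uqcrh, the hinge protein that helps cytochrome c dock, was at 166.2 and 161.9 CPM against 116.7 and 110.3 CPM (-0.53 on the log2 scale, adjusted p = 0.182). The 2 core proteins of complex III had opposite signs. Uqcrc1 was at 302.5 and 316.4 CPM in IVS and 222.4 and 207.6 CPM with diosmin (-0.53, adjusted p = 0.192). Uqcrc2 was at 85.5 and 78.1 CPM in IVS and 93.1 and 96.8 CPM with diosmin (0.21, adjusted p = 0.652). Uqcrc2 shares 504 bases of exon with Pdzd9 on the opposite strand, whose count was 0.628 to 0.720 times that of Uqcrc2, so its level is uncertain. Of the subunits that carry the electrons, Uqcrfs1, the Rieske iron-sulfur protein, had a log2 fold change of -0.35, and Cyc1, cytochrome c1, had -0.04. Cyc1 stood between 98.2 and 102.5 CPM in all 4 libraries. The small subunits Uqcrb, Uqcr10 and Uqcr11 had values of -0.18, -0.14 and -0.34. Cytochrome c itself (Cycs), the mobile carrier to complex IV, was at 212.0 and 231.5 CPM in IVS and 208.7 and 165.6 CPM with diosmin (-0.24, adjusted p = 0.624).

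Complex IV had the lowest sum relative to IVS and 2 of the 4 genes that fell. Cox6a1 (chromosome 5, 115345642 to 115348981, minus strand, mm10) encodes the broadly expressed isoform of a regulatory subunit. Its promoter, printed above, held 3 NRF1 matches, as did the windows of Sdha and Uqcrc1. Cox6a1 was at 21.4 and 24.3 CPM in IVS and 11.9 and 9.09 CPM with diosmin, a log2 fold change of -1.12 ± 0.24 with an adjusted p of 0.0295. The mean fell from 22.8 ± 2.06 to 10.5 ± 2.02 CPM (SD), or 46.1% of the IVS mean. Cox5a (chromosome 9, 57521274 to 57532426, plus strand), a matrix-side subunit that joins the complex early with Cox4i1, was at 192.4 and 205.5 CPM in IVS and 104.0 and 120.0 CPM with diosmin. Its log2 fold change was -0.83 ± 0.20 with an adjusted p of 0.0475, which became 0.0524 with DESeq2's size factors in the edgeR test. Cox5a shares 269 bases of exon with the opposite-strand gene Gm26631, whose count was 0.567 to 0.583 times that of Cox5a in every library, so part of either count may belong to the other gene.

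Most other genes of complex IV had negative fold changes near the complex's median. Cox4i1, which enters the complex with Cox5a, was at 505.3 and 505.9 CPM in IVS and 360.5 and 335.7 CPM with diosmin (-0.54, adjusted p = 0.182). Cox5b, the zinc-binding matrix subunit, was at 286.6 and 276.9 CPM against 195.1 and 168.4 CPM (-0.63, adjusted p = 0.123). Their groups did not overlap, nor did those of the small membrane subunit Cox6c (-0.52). Cox6b1, on the intermembrane side where cytochrome c docks, was at 159.0 and 153.8 CPM in IVS and 123.7 and 98.7 CPM with diosmin (-0.49, adjusted p = 0.244). Cox7b, a small membrane subunit, was at 177.5 and 149.1 CPM against 164.0 and 126.1 CPM (-0.17, adjusted p = 0.767), and its value ran from -0.37 without IVS_diosmin replicate 1 to -0.01 without IVS_diosmin replicate 2. The groups overlapped for Cox7b and for the small subunit Cox7c (-0.24), as they did for Cox7a2l (0.18). Ndufa4, a complex IV subunit that carries a complex I name and so lies outside the naming rule, fell from 357.3 and 374.9 CPM to 188.5 and 198.3 CPM (-0.92, adjusted p = 0.0293). Ndufa4 did not pass the threshold when any library was left out (adjusted p = 0.0747 to 0.232).

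**Figure D2:**
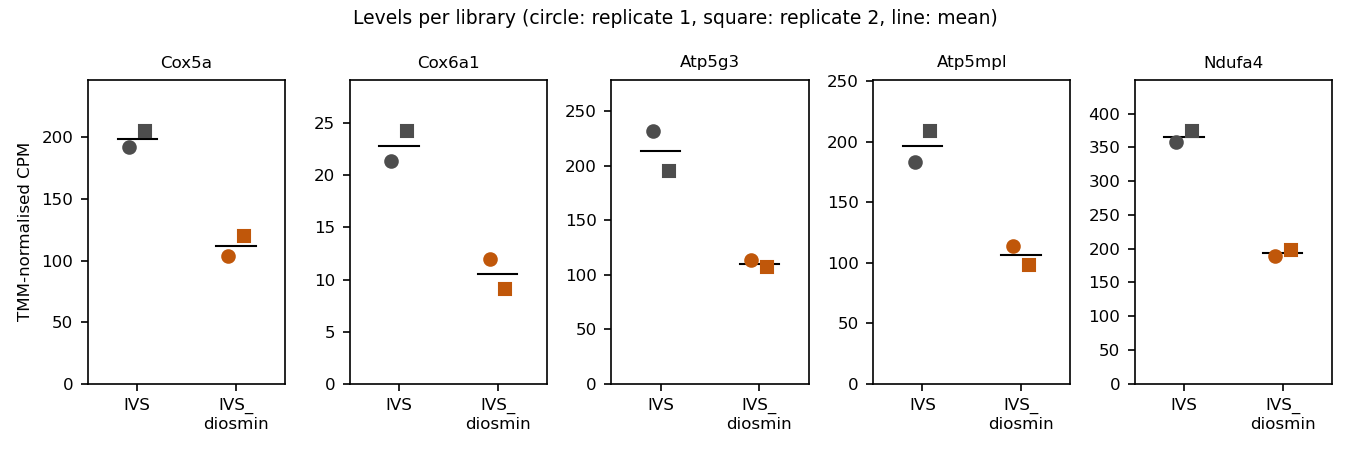
TMM-normalised CPM per library of the 4 genes that fell and of Ndufa4, each on its own axis from 0, with a line at the mean of each group. In all 5 panels both diosmin libraries lie below both IVS libraries.

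The isoform pairs of complex IV were compared per length of exon, as the log2 ratio of the restricted to the broad isoform in each library. The muscle isoforms prevailed in all 4 libraries. Cox6a2 was the gene with the highest level per length of the 50, at 1550 and 1600 CPM per kb in IVS and 1160 and 995 CPM per kb with diosmin. Cox6a1 was at 30.5 and 34.6 CPM per kb in IVS and 17 and 13 CPM per kb with diosmin. The log2 ratio of Cox6a2 to Cox6a1 was 5.67 and 5.53 in IVS and 6.09 and 6.26 with diosmin, a 48.5-fold and a 72.5-fold excess. Both genes had negative fold changes (Cox6a2 -0.55, adjusted p = 0.184), and that of Cox6a1 was the larger, so the ratio was higher in both diosmin libraries than in either IVS library. The exact permutation test (2-sided) gave p = 0.333, the smallest that 2 libraries against 2 allow, and 0.5 adjusted over the 6 pairs compared.

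For Cox7a1 and Cox7a2, the muscle and the broadly expressed form of another small subunit, the ratios of the groups overlapped. The log2 ratio of Cox7a1 to Cox7a2 was 1.96 and 1.77 in IVS and 2.32 and 1.70 with diosmin, (difference 0.14, exact permutation p = 1). Both genes lay lower with diosmin. Cox7a1 was at 154.1 and 171.0 CPM in IVS and 125.2 and 91.4 CPM with diosmin (-0.59, adjusted p = 0.185), and Cox7a2 was at 70.0 and 88.5 CPM against 44.2 and 49.8 CPM (-0.75, adjusted p = 0.0761). The pair Cox8b and Cox8a also kept overlapping ratios, at 4.48 and 3.97 in IVS and 4.44 and 4.05 with diosmin (difference 0.02, exact permutation p = 1). Cox8b was at 250.1 and 234.6 CPM in IVS and 170.4 and 171.7 CPM with diosmin (-0.50, adjusted p = 0.209), and Cox8a was at 19.2 and 25.7 CPM against 13.5 and 17.8 CPM (-0.52, adjusted p = 0.311). The value for Cox8a was -0.30 without IVS replicate 2 and -0.33 without IVS_diosmin replicate 1, and that for Cox7a1 was -0.39 without IVS_diosmin replicate 2. With 2 libraries per group these tests cannot show that the ratios were alike. The difference for Cox7a1 and Cox7a2 was -0.17 without IVS_diosmin replicate 1, and that for Cox8b and Cox8a was -0.24 without IVS replicate 2 and -0.18 without IVS_diosmin replicate 1.

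Cox4i2, the lung and hypoxia isoform of Cox4, was scarce, at 2.34 and 1.46 CPM in IVS and 4.24 and 1.81 CPM with diosmin. The groups overlapped (0.65 ± 0.55, adjusted p = 0.621), and the value was -0.09 without IVS_diosmin replicate 1. Its log2 ratio to Cox4i1 was -6.78 and -7.46 in IVS and -5.43 and -6.56 with diosmin (difference 1.12, exact permutation p = 0.333). The difference was 0.56 without IVS_diosmin replicate 1 and 1.69 without IVS_diosmin replicate 2, and the IVS mean of -7.12 was -8.03 with the length of the longest transcript. The testis isoforms Cox7b2 and Cox8c had 0 counts in every library, which allows up to 3 counts, or 0.172 to 0.244 CPM, for counting error only. Cox6b2, also a testis isoform, had 2 counts in IVS replicate 1 and 0 elsewhere. These 3 genes and a duplicate Atp5o entry with 0 counts were not tested.

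**Figure D3:**
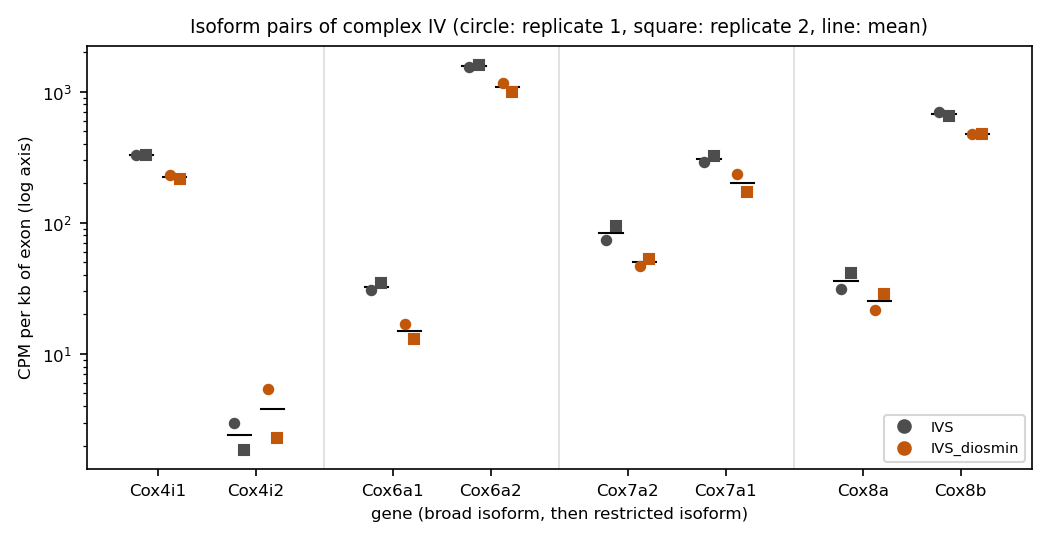
CPM per kb of exon on a log axis for the 4 isoform pairs of complex IV, broad isoform first, with points for libraries and lines for group means. Cox6a2, Cox7a1 and Cox8b lie above their broad partners in every library, and Cox4i2 lies below Cox4i1.

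In complex V the lowest p was in a gene of the c subunit, the ring protein that carries the protons. Atp5g1, Atp5g2 and Atp5g3 encode the same mature c subunit behind different import sequences. Atp5g3 (chromosome 2, 73908447 to 73911326, minus strand) was at 232.0 and 194.6 CPM in IVS and 113.6 and 106.6 CPM with diosmin. It fell by 0.95 on the log2 scale (standard error 0.20, adjusted p = 0.0282), from a mean of 213 ± 26.5 to 110 ± 5.01 CPM (SD). Atp5g1 was at 194.8 and 200.7 CPM in IVS and 179.6 and 176.5 CPM with diosmin (-0.15, adjusted p = 0.777). Atp5g2 was at 37.4 and 39.1 CPM in IVS and 48.0 and 46.2 CPM with diosmin (0.30, adjusted p = 0.494). The groups did not overlap in any of the 3 genes, and Atp5g2 had the opposite sign. Among all genes tested, 24.1% lay apart in this way with diosmin lower and 23.4% with diosmin higher.

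Per length of exon, Atp5g3 exceeded Atp5g1 by log2 ratios of 1.42 and 1.13 in IVS and 0.51 and 0.44 with diosmin, a 2.42-fold and a 1.39-fold excess. The ratio of Atp5g3 to Atp5g2 was 2.25 and 1.94 in IVS and 0.86 and 0.83 with diosmin. Both shifts (-0.80 and -1.25) kept their direction when any library was left out, and both had an exact permutation p of 0.333, the smallest possible here. The size of the level difference depends on the gene model, since with the longest transcript in place of the exon union the IVS log2 ratio of Atp5g3 to Atp5g1 was 2.56 and not 1.28. The coding sequences share 84.3% of bases over 249 for Atp5g1 and Atp5g2, 78.7% over 267 for Atp5g1 and Atp5g3, and 78.5% over 228 for Atp5g2 and Atp5g3. Atp5g1 has a near-identical pseudogene whose counts reached 27.1% of its own. Among the annotated transcripts of other genes, Atp5g3 has no copy at 95% identity over 100 bases.

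**Figure D4:**
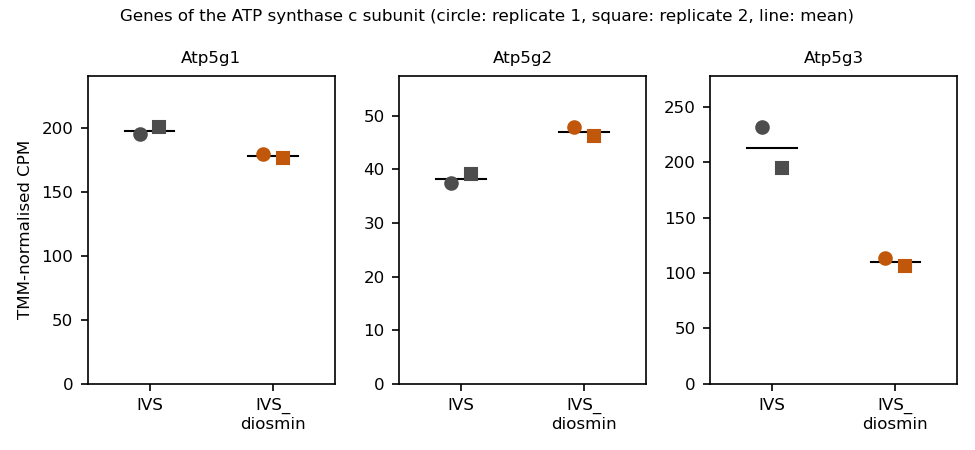
TMM-normalised CPM per library of the 3 genes of the ATP synthase c subunit, each on its own axis from 0, with a line at the group mean. Atp5g3 lies at 194.6 and 232.0 CPM in IVS and 106.6 and 113.6 CPM with diosmin, while Atp5g2 lies higher with diosmin.

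Atp5mpl (chromosome 12, 111961375 to 111966977, minus strand), a small proteolipid of the membrane part of the ATP synthase, fell from 183.0 and 209.2 CPM in IVS to 114.0 and 98.3 CPM with diosmin. Its log2 fold change was -0.89 ± 0.20 with an adjusted p of 0.0396, and the groups did not overlap. The other small membrane subunits had negative values too. Atp5l, subunit g, was at 209.2 and 226.8 CPM in IVS and 127.5 and 133.1 CPM with diosmin (-0.74, adjusted p = 0.0678). Atp5l shares 133 bases of exon with the opposite-strand gene Gm30934, whose count was 0.384 to 0.410 times its own. Atp5j2, subunit f, had -0.54 and Atp5k, subunit e, had -0.24.

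For the alpha, beta and gamma subunits of the ATP synthase the log2 fold changes were -0.18, -0.30 and 0.07, and none passed the threshold. The alpha subunit Atp5a1 was at 420.1 and 491.2 CPM in IVS and 366.1 and 436.9 CPM with diosmin, with overlapping groups (-0.18). The beta subunit Atp5b, which holds the catalytic site, was at 845.1 and 937.3 CPM in IVS and 693.0 and 759.6 CPM with diosmin (-0.30, adjusted p = 0.512). The rotating gamma subunit Atp5c1 had 0.07 and overlapping groups. Of the other rotor subunits, Atp5d (delta) had -0.33, and Atp5e (epsilon) was at 285.5 and 331.2 CPM against 203.0 and 193.0 CPM (-0.64, adjusted p = 0.120). The peripheral stalk, which keeps the head from turning, had values of -0.03 for Atp5f1 (subunit b), -0.48 for Atp5h (d), -0.26 for Atp5j (F6) and -0.26 for Atp5o (OSCP). Atp5s, named factor B and not a core subunit, was at 8.40 to 12.4 CPM with overlapping groups (0.15).

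Assembly factors, which build the complexes but stay out of them, had medians nearer to 0 than the subunits or above it. Of 4 assembly genes of complex II, 6 of complex III, 20 of complex IV and 3 of complex V, none passed the threshold by edgeR's quasi-likelihood test. At an unadjusted p under 0.05, 1 of these (complex IV) was lower and 2 (complexes IV and V) were higher, against 8.91% and 7.91% of all genes. Their median log2 fold changes were 0.38, 0.07, -0.11 and 0.17. The lowest p in each list belonged to Sdhaf1 (0.42, adjusted p = 0.433), which serves the iron-sulfur clusters of Sdhb, Bcs1l (0.48, adjusted p = 0.482), which inserts the Rieske protein, Coa3 (-0.55, adjusted p = 0.197), which aids synthesis of the mitochondrial Co1 subunit, and Atpaf1 (0.93, adjusted p = 0.179), which assembles the beta subunit. Bcs1l was at 0.07 without IVS_diosmin replicate 1 and 0.79 without IVS_diosmin replicate 2, and Atpaf1 was at 0.56 without IVS_diosmin replicate 2.

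The 6 mitochondrially encoded subunits of complexes III to V all had positive values (median 0.42), and 0 passed the threshold by edgeR, with 1 at an unadjusted p under 0.05 (7.91% of all genes). Their summed level was 158000 and 241000 CPM in IVS and 288000 and 238000 CPM with diosmin, with overlapping groups. The lowest p was that of mt-Co2 (0.57, adjusted p = 0.286), whose value was 0.12 without IVS_diosmin replicate 1 and 0.89 without IVS_diosmin replicate 2. Of 13 transcription regulators of respiratory genes 0 passed by edgeR and 2 were higher at an unadjusted p under 0.05, against 7.91% of all genes. Their lowest p was that of Esrrg, an estrogen-related receptor, at 1.14 and 1.38 CPM in IVS and 6.09 and 2.64 CPM with diosmin (1.79, adjusted p = 0.0991). The value for Esrrg was 1.07 without IVS_diosmin replicate 1. Of 7 tested supercomplex and cristae genes, 2 were lower and 2 higher at an unadjusted p under 0.05, against 8.91% and 7.91% of all genes. Of the 7, 1 rose past the threshold by edgeR, where 1.17% of all genes did. Chchd3, a component of the cristae-junction complex MICOS, rose from 119.1 and 116.9 CPM to 208.2 and 217.4 CPM (0.85, adjusted p = 0.0396). Higd1a, which binds complex IV, was at 27.2 and 25.0 CPM in IVS and 15.3 and 14.0 CPM with diosmin, a value of the opposite sign that did not pass (-0.83, adjusted p = 0.062), and it is named here after its values were seen. Chchd3 did not pass with total-count scaling (adjusted p = 0.111) or when any library was left out (adjusted p = 0.128 to 0.273). Over these lists together DESeq2's Wald test called 1 gene higher and 1, Ndufa4, lower.

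Among the 46 genes the fold change varied with transcript length. The 6 genes with coding transcripts up to 500 bases had a median log2 fold change of -0.42, the 21 genes over 500 and up to 1000 bases had -0.53, and the 14 genes over 1000 and up to 2000 bases had -0.11. Among all other protein-coding genes the medians in these bins were -0.10, -0.13 and -0.02. The 4 genes over 2000 and up to 4000 bases had a median of -0.03 (0.01 in other genes), with Sdha at 0.49, Sdhc at 0.11, Atp5a1 at -0.18 and Cycs at -0.24. The differences within bins were not tested. Across the 46 genes, Spearman's rho of the fold change was 0.44 with length, -0.26 with GC content and -0.30 with mean log2 CPM. Genes share libraries, so these are descriptions with no p. With an offset for length, added after seeing the data, the median was -0.28 and 0 of the 4 calls passed the threshold (Cox6a1 adjusted p = 0.0599, Atp5g3 0.0614, Atp5mpl 0.0812, Cox5a 0.0985). With an offset for GC content 4 were called.

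**Figure D5:**
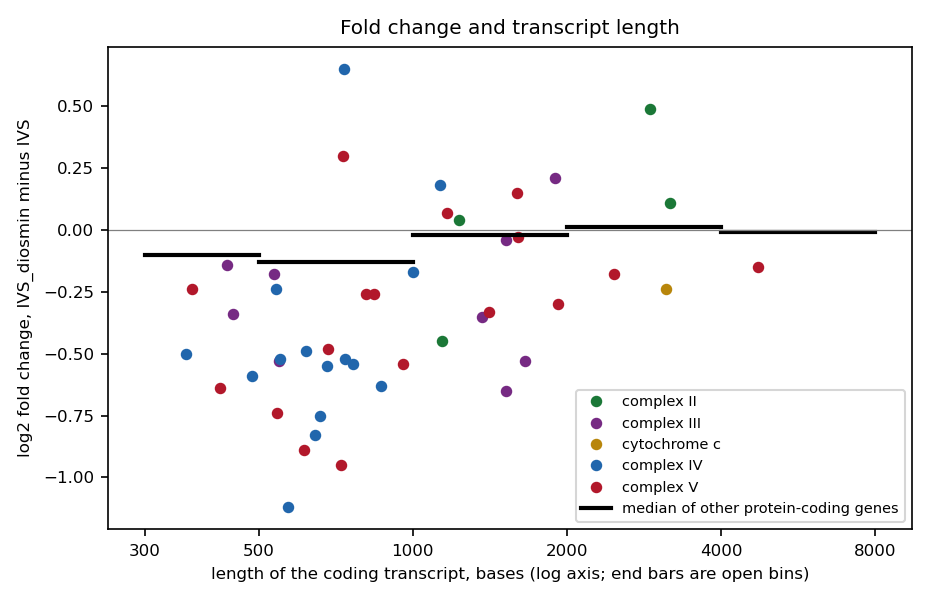
Log2 fold change of the 46 genes against the length of their coding transcript in bases (log axis), coloured by complex, with black bars at the median of other protein-coding genes in each length bin. Most points below 1000 bases lie under the bars, while the 5 genes above 2000 bases lie between -0.24 and 0.49.

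Many subunit genes have near-identical copies among the annotated transcripts of other genes. The files set reads aligned to several places apart from the gene counts. Of the 46 tested genes, 17 have another gene at 95% identity or more over at least 100 bases of their coding sequence, and none of the 4 that fell is among them. The median log2 fold change was -0.24 in these 17 genes and -0.50 in the 29 without such a copy. Levels of the 17 are therefore uncertain. Counts given to the copies reached 27.1% of the gene's own count for Atp5g1 and 20.7% for Uqcr10. Such counts do not measure the reads that a gene lost by aligning to several places.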

How the data were processed

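The raw counts per gene that the authors deposited were analysed for 4 poly(A) RNA libraries of semimembranosus muscle. Per the submitters' processing notes, reads were handled with HISAT2 2.1.0 and HTSeq on mm10. For HTSeq's version and strand setting, the annotation release and any filters, the entry is: not given in the sources used here. GENCODE M21 gave symbols and positions for 55141 of 55401 identifiers. HTSeq's 5 summary lines stayed out of library sizes and tests: 24.9% to 27.7% of reads were counted to genes, 25.8% to 29.7% lay in no feature and 37.7% to 45.6% aligned to more than 1 place.

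Counts were filtered with filterByExpr (13533 genes kept), scaled by TMM and tested with edgeR 4.0.16 (R 4.3.3) by a robust quasi-likelihood test, 2-sided, with Benjamini-Hochberg adjustment over all genes tested and a threshold of 0.05. The biological coefficient of variation was 0.235. A standard error is the log2 fold change over the square root of F. The scripts were tested on simulated data. Alternatives were DESeq2 1.42.0, other scalings, no filter, a replicate block, each library left out, other lengths, and offsets for length and GC content. Copies of the coding sequences were sought with BLASTN 2.17.0 among the annotated transcripts of other genes, and copies outside them were not searched for. Promoters came from RefSeq (GRCm38.p6).

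The genes and lists were chosen with earlier results of these data known. Genes given in full were those past the threshold, the lowest p in each complex or list, the isoform pairs, the c subunit genes and Ndufa4; others were given by value where a role called for it. The labels do not say that replicates are separate animals, so every p-value reflects the spread of these libraries alone, and that spread may be technical. Replicates differed beyond sampling noise (chi-square per degree of freedom 28.6 in IVS and 19.7 with diosmin).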

Additional observations from a re-analysis of the deposited data

Results flagged for a closer look

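Reads that aligned to more than 1 place, which enter no gene count, made up 37.7% and 38.8% of the reads in IVS replicates 1 and 2 and 45.6% and 43.6% in IVS_diosmin replicates 1 and 2. The diosmin mean of 44.6% lay above the 38.2% of the IVS libraries, in a line of the count files that no comparison above uses. The genes these reads came from are not given in the files, and 17 of the 46 tested subunit genes have a near-identical copy.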

How the results depend on the processing

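The 4 genes that fell kept a negative fold change under all 11 alternatives, and no gene of the 46 was called higher under any. The number called lower was 9 with DESeq2, 6 without the count filter, 3 with DESeq2's size factors, 4 with total-count scaling and 0 with the length offset, which was added after seeing the data. Leaving out a library gave 0 to 1. The labels do not say that equal replicate numbers pair the samples, and the deviations of same-numbered libraries correlated at -0.01. With the replicate number as a block 0 of the 46 were called, and 0 of the other pathway genes in either direction. The median over the 46 genes was -0.43 with total-count scaling and -0.28 with the length offset, and -0.41 to -0.32 without a library. With total-count scaling the medians of complexes II, IV and V were -0.04, -0.64 and -0.38. With the length offset those of complexes III, IV and V were -0.13, -0.37 and -0.18. Without a library they ran from -0.03 to 0.16 in complex II, -0.60 to -0.46 in complex IV and -0.33 to -0.22 in complex V. Of the other pathway genes, 3 were higher and 2 lower without the filter, 0 were higher with total-count scaling and 0 lower with the length offset. Without a library 0 to 1 were higher and 0 lower. Among the genes and pairs given in full, the sign of Cox4i2 turned without IVS_diosmin replicate 1 (-0.09, range -0.09 to 1.12). Without that library Cox7a1 over Cox7a2 (-0.17, range -0.17 to 0.45) and Cox8b over Cox8a (-0.18) turned too. Without IVS replicate 2 the sign of Cox8b over Cox8a turned (-0.24, range -0.24 to 0.27). Over the 11 alternatives signs also turned for Sdhc (-0.01 to 0.24), Sdhd (-0.13 to 0.17), Uqcr10 (-0.37 to 0.07) and Uqcrb (-0.33 to 0.01). The same held for Cox7a2l (-0.03 to 0.41), Atp5c1 (-0.04 to 0.15), Atp5f1 (-0.15 to 0.02) and Atp5s (-0.17 to 0.4). The cause was not tested. Depth of 13056650 to 15324354 counts limits Cox4i2, Atp5s and the isoforms at 0 most, and 2 libraries per group limit every test.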
